A study of Mus musculus with 4 samples.

Results

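Gonadotrophs are the pituitary cells that make the gonadotropins, luteinizing hormone and follicle-stimulating hormone, and they were picked here from a single-cell RNA-seq table of whole mouse pituitary. A barcode counted as a gonadotroph when it held at least 1000 UMIs, at most 10% of them mitochondrial, with Cga at 2% or more of its UMIs, at least 2 UMIs of Gnrhr, Tshb below 0.2%, Gh below 20%, Prl below 5% and Pomc below 1%. UMIs are unique molecular identifiers, each standing for 1 captured RNA molecule. The rule found 622 gonadotrophs among 37423 barcodes that passed the UMI and mitochondrial limits, 1.66% of them. The clauses on Cga, Gnrhr and the other 4 hormones chose the cells, so the levels of those genes are given as a description only.

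The tissue came from male mice that were 4 weeks old at the start and were kept for 12 weeks on a high-fat diet (HFD) or on a normal diet (ND), with 2 libraries per diet and 3 pituitaries pooled for each library. Strain and animal identity were not stated, nor whether both libraries of a diet came from separate pools. The labels also give every library the cell line Lbt2 and the cell type gonadotroph, yet tissue and protocol name whole pituitary, and only 1.66% of the barcodes met the gonadotroph rule. All 4 libraries sit in 1 joined table whose barcodes end in a suffix from 1 to 4. Barcodes with the same suffix are called a set here. Nothing in the sources used here ties a suffix to a library or a diet, so HFD and ND could not be compared, and no test between groups was possible. Results are given for each set, and intervals at 95% cover counting error only.

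A gonadotroph assembles both gonadotropins from a shared alpha subunit, encoded by Cga, and a specific beta subunit, encoded by Lhb or Fshb. Gonadotropin-releasing hormone from the hypothalamus reaches the cell through its receptor Gnrhr, which signals through Gq, calcium and protein kinase C. Activins raise Fshb transcription and inhibins oppose them, while the nuclear receptor SF1, encoded by Nr5a1, sets up much of the gonadotroph programme. Thyrotrophs share Cga with gonadotrophs and pair it with Tshb.

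The 250 bases before the annotated start are shown for 3 genes that the results below turn on. They were higher in gonadotrophs, and the window of each held a match to a different searched motif. Sequences are from RefSeq on GRCm38.p6, 5′ to 3′ on the gene's strand, with a match to 1 of 4 searched motifs in capitals: Lhb at chr7:45420696-45420945 (plus strand), Fshb at chr2:107059652-107059901 (minus strand) and Scg2 at chr1:79440027-79440276 (minus strand).
Lhb: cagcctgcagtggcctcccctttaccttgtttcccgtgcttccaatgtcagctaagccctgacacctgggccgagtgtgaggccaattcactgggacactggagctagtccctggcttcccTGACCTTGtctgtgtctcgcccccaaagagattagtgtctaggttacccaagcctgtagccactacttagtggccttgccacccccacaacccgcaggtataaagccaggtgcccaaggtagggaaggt
Fshb: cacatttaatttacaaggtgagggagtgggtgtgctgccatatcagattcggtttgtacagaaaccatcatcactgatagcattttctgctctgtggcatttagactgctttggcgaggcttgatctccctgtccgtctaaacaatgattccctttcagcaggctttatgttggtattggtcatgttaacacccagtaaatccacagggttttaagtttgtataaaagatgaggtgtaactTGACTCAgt
Scg2: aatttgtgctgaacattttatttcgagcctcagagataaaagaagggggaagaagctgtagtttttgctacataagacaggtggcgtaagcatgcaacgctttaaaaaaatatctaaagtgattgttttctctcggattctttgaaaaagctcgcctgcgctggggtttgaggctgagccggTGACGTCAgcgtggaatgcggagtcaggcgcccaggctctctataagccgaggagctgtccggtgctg
In Lhb the capitals mark CAAGGTCA on the opposite strand, the element that SF1 is known to bind, starting at position -129 from the start. In Fshb they mark TGAGTCA, the AP-1 element of Fos and Jun dimers, on the opposite strand at position -9. In Scg2 they mark the cAMP response element TGACGTCA at position -68. The fourth motif was TAATCC, bound by bicoid-type homeobox factors such as Pitx1. Among all 32851 RefSeq windows of the same length, 1.33% held CAAGGTCA, 4.46% TGAGTCA, 1.55% TGACGTCA and 6.25% TAATCC, both strands counted. None of the 4 occurred in the windows of Cga, Gnrhr or Tgfbr3l. These letters are a description of the sequence and not evidence of binding.

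The table held 40406 barcodes and 346690898 UMIs over 55357 genes, with 81621358 to 92665029 UMIs per set. The sets held 65, 294, 112 and 151 gonadotrophs, which made up 0.696% (0.537 to 0.886), 3.19% (2.84 to 3.57), 1.18% (0.973 to 1.42) and 1.61% (1.37 to 1.89) of their barcodes, so that set 2 was highest and set 1 lowest. Their intervals overlapped with no other, while those of sets 3 and 4 overlapped. Of 156 barcode sequences found in more than 1 set, 3 carried a gonadotroph, and none carried gonadotrophs in 2 sets. Gonadotrophs had a median of 16119 UMIs and 4932 genes, against set medians of 7167 to 8070.5 UMIs over all barcodes. Asking for at least 2 Gnrhr UMIs favours deep barcodes, so this depth is partly built in. The barcodes that failed only on Gnrhr had a median of 4564 UMIs.

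The label gonadotroph was checked with the markers that the rule did not use. Fshb was detected in 99.4% of the 622 cells, Tgfbr3l in 99.4%, Lhb in 97.9%, the granin Scg2 in all of them and Nr5a1 in 76.0%. Scg2 was abundant in thyrotrophs too, as given below, so its detection alone does not set gonadotrophs apart. Markers of neighbouring hormone cells were lower than in those cells on the scale defined next, but not all were near 0. The somatotroph marker Ghrhr was at 10.1 against 243 in somatotrophs, and the lactotroph marker Drd2 at 11.0 against 114 in lactotrophs. Trhr, the thyrotropin-releasing hormone receptor of thyrotrophs, stood at 0.553 against 205 in thyrotrophs, and Tbx19, the lineage factor of corticotrophs and melanotrophs, at 4.31 against 261 in the Pomc cells. Here and below, a gene's level means its CPM, the UMIs scaled to a fixed total, with the total taken without the 7 hormone genes Gh, Prl, Pomc, Cga, Tshb, Fshb and Lhb, and the subunits are also given as a percent of all UMIs. The comparison classes were set by gates of the same kind: 336 thyrotrophs, 2599 Pomc cells, 14946 somatotrophs and 7725 lactotrophs.

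Some of the 622 cells also carried RNA of other cell types. A gonadotroph was called mixed when it had more than 5 UMIs over 30 markers of stem and folliculostellate, endothelial, macrophage, T and B, and fibroblast and mural cells, or Gh of at least 2%, Prl of at least 0.5% or Pomc of at least 0.2%. This definition was chosen after seeing the data. It marked 160 cells (25.7%), namely 22, 71, 25 and 42 in sets 1 to 4, of which 69 by the markers and 83 by Gh. In the mixed cells Gh averaged 5.14% and Cga 7.33%, against 0.704% and 11.2% in the other 462. Gh is part of the definition, so its difference is partly built in. Scrublet, a caller of simulated doublets, had 46 gonadotrophs in its top 8% of scores per set, and 37 of these were mixed. Summed markers of several other cell types were highest in set 1: stem and folliculostellate markers reached 406 there against 125 to 210 in the other sets, and endothelial markers 332 against 74.4 to 184. Fibroblast and mural markers were also highest in set 1, at 140 against 17.7 to 80.4, while macrophage markers spanned 8.31 to 99.9. Single stem and folliculostellate markers ran from 0 for S100b to 104 for Rbpms, and T and B markers from 0 for Cd3d to 12.6 for Trac. S100b was at 2.16 or less in every other class compared, so its 0 says little. Counts over all genes are given with and without mixed cells for the comparisons between classes, sets and terciles, while levels and the counts against single classes are for all members unless stated. Without mixed cells 16 of 33 named levels moved by more than 1 SD of the 4 sets, to between 0 and 1.14 times the level in all members.

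Cells just outside the rule carried less of the gonadotropin subunits. A group of 127 barcodes met every clause but that on Cga, and their pooled Fshb was 1405 CPM of all UMIs against 9454 in the gonadotrophs. Their Nr5a1 was at 122 against 103, so not every gonadotroph marker was lower. Another 127 failed only on Gnrhr, 99 of them with no Gnrhr UMI. Close to the Cga limit the change was gradual: Fshb was 2621 in the 19 barcodes with Cga of 1.5 to 2% and 3692 in the 18 with 2 to 2.5%. The 28 barcodes with a single Gnrhr UMI had Fshb at 4419 and a median of only 2400 UMIs, while the 17 with 2 Gnrhr UMIs had Fshb at 5187. The limit on Tshb left out 3 barcodes, all of set 2. Those on Gh, Prl and Pomc left out 25, 27 and 15, all with an Fshb UMI and with Fshb at 4471, 4984 and 6344.

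**Figure D1:**
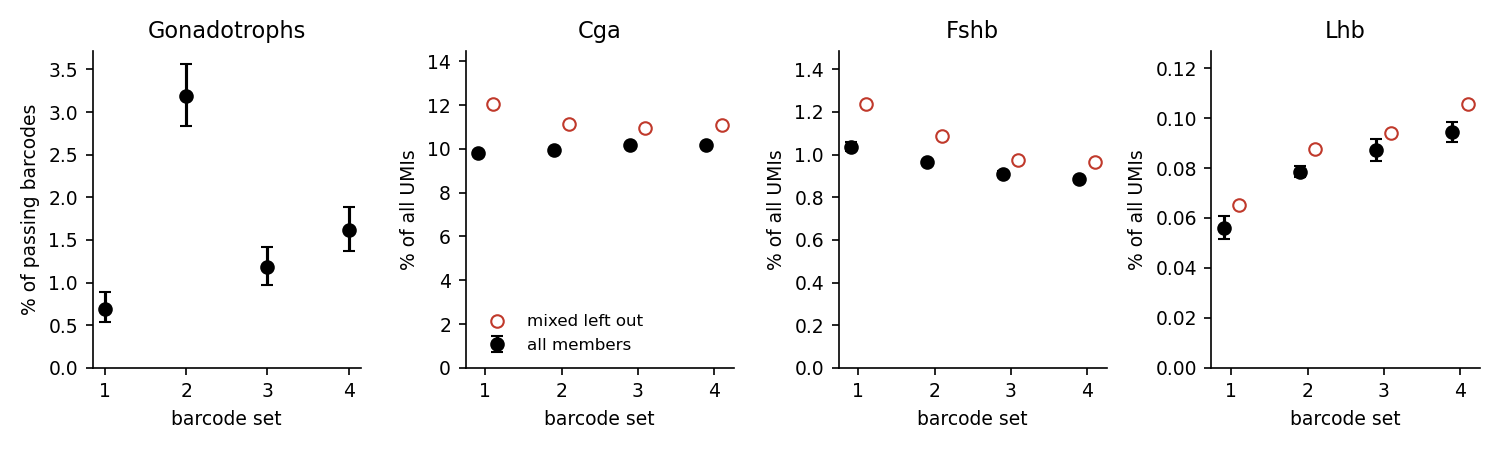
Gonadotrophs by barcode set: share of passing barcodes, and Cga, Fshb and Lhb as percent of all UMIs, with black points for all members, bars for exact 95% counting intervals and open red points for members without mixed cells. Set 2 holds the largest share, and Lhb is lowest in set 1 (0.0559%) and highest in set 4 (0.0945%), also without mixed cells.

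The alpha subunit Cga made up 9.82, 9.93, 10.2 and 10.2% of all UMIs in sets 1 to 4, close to level across sets. Single cells spanned 2.01 to 32.0% with a median of 9.81%. Thyrotrophs had 6.65%, and the 3 classes without a glycoprotein hormone 0.0179 to 0.0214%.

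Fshb, the beta subunit of follicle-stimulating hormone, was 1.04, 0.964, 0.911 and 0.884% of UMIs in sets 1 to 4. It was highest in set 1 and lowest in set 4, and the order was the same without mixed cells, at 1.24, 1.09, 0.975 and 0.966%. In thyrotrophs it was 0.00247%, near the 0.00244% of endothelial cells and 0.00218% of T cells, which should lack the gene.

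Lhb, the beta subunit of luteinizing hormone, ran the other way, at 0.0559, 0.0786, 0.0871 and 0.0945% of UMIs, lowest in set 1 and highest in set 4. The order held without mixed cells, at 0.0650, 0.0875, 0.0942 and 0.106%. Thyrotrophs had 0.000431% and endothelial cells 0.000530%. The Lhb level is uncertain because 2 gene identifiers share the symbol, with 10699 and 87 UMIs in the table, and only the larger was used. Gnrhr was 0.0979, 0.0961, 0.0936 and 0.109% of UMIs, highest in set 4. Each set gives a single value, so these orders have no replicate check.

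Nearly all gonadotrophs carried RNA of both beta subunits. After each cell was thinned to 5000 UMIs, which left out 27 shallower cells, Fshb was found in 591 of 595 cells (99.3%) and Lhb in 561 (94.3%). Both were found in 560, 94.1% (91.9 to 95.9) in this random draw and 90.4 to 94.96% in 20 other draws, with a median of 92.6%, Fshb alone in 31 cells (5.21%), Lhb alone in 1 and neither in 3. The share with both was 89.8, 93.6, 93.6 and 97.2% in sets 1 to 4, and unthinned it was 97.4%. With at least 3 UMIs of each asked for, the share with both was 68.7%, from 50.8% in set 1 to 75.2% in set 4, while Fshb alone reached 98.7%, so the cells short of both were those with few Lhb UMIs. Endothelial cells, which should lack both genes, gave the background: at the same depth 5.48% of 493 had an Fshb UMI, 2.23% an Lhb UMI and 0.609% both. The median depth before thinning was 16119 UMIs in gonadotrophs and 4328.5 in endothelial cells.

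**Figure D2:**
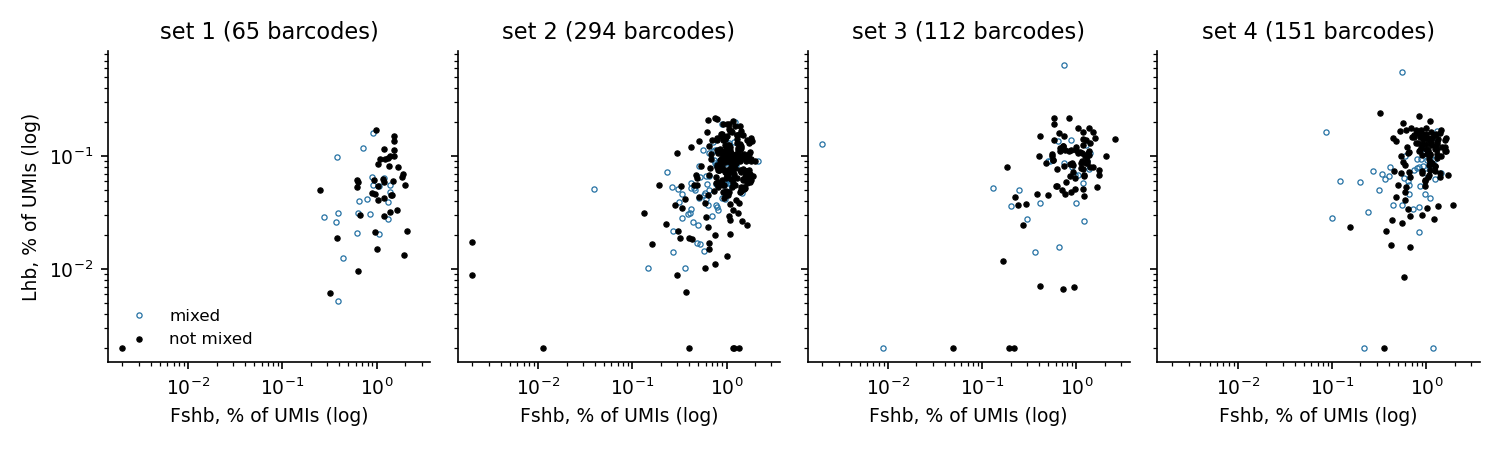
Fshb against Lhb as percent of UMIs on log axes, 1 panel per barcode set and 1 point per gonadotroph, with open points for mixed cells and values of 0 drawn at the edge. Most cells form 1 cloud near the medians of 0.955% Fshb and 0.0761% Lhb, with few cells at the edge of either axis.

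Across the 595 thinned cells, Fshb went more closely with Scg2 than with the other beta subunit. Spearman's rank correlation was 0.628 for Fshb with Scg2, with single sets at 0.579 to 0.696, and 0.258 for Fshb with Lhb, with sets at 0.155 to 0.347. Lhb went most closely with Tgfbr3l, at 0.482. Over all 595 cells Gnrhr was only weakly related to any of the other 9 genes compared, with a largest rank correlation of 0.160. Single sets varied, and with Fshb it ran from -0.00246 in set 4 to 0.456 in set 1. The rule asked for at least 2 Gnrhr UMIs, which limits the range of Gnrhr. These are descriptions across cells that share libraries, and the genes at few UMIs per cell carry more counting noise than Scg2. Mixed cells were kept in, with Fshb at 0.697% and Lhb at 0.0592% against 1.05% and 0.0907% in the other cells. What part mixed cells had in these correlations was not tested.

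Gonadotrophs were then set against the other 4 hormone classes. A gene was called higher when its level was at least 2 times that of the highest other class in each of the 4 sets, and lower when it was at most 0.5 times that of the lowest. Genes with a mean level of at least 20 over the 5 classes were compared, without the genes of the rule. Of 7986 genes, 81 were higher (1.01%), 34 lower (0.426%) and 830 highest of the 5 classes in every set (10.4%). For 32 of the 81 genes the next class was the thyrotroph, for 18 the Pomc cells, for 17 the lactotroph and for 14 the somatotroph. Without mixed cells 92 of 7967 genes were higher (1.15%), 78 of them shared, and 113 were lower (1.42%), 33 of them shared. The mean over the 5 classes includes the gonadotroph, so a gene near 0 elsewhere was compared only if it was high there. Of the 81 higher genes 49 passed in this way, Fshb, Lhb, Tgfbr3l and Spp1 among them. With the minimum asked of the 4 other classes alone, a choice made after seeing the data, 32 of 8012 genes were higher (0.399%), 39 lower (0.487%) and 729 highest in every set (9.1%).

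Fshb and Lhb were among the genes furthest above the other classes. On the scale without hormone genes, Fshb stood at 10913 and Lhb at 936, which was 395 and 194 times the next class, the thyrotroph. Tgfbr3l, known as a co-receptor for inhibin B, was at 2205, 2570, 2517 and 2850 in sets 1 to 4, with no overlap with the 8.32 of thyrotrophs, and its pooled ratio was 311. Spp1, the secreted phosphoprotein osteopontin, was at 2273, 2162, 2160 and 2402 against 13.1 in thyrotrophs, a ratio of 169. Spp1 varied little over the sets, and Tgfbr3l was lowest in set 1.

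Other secreted factors were higher too. Vegfa, the vascular endothelial growth factor, stood at 216 against 13.6 in thyrotrophs. Grem1, a secreted antagonist of bone morphogenetic proteins, was at 288, 458, 341 and 389 in sets 1 to 4 against 39.4 in thyrotrophs, lowest in set 1 and still above every other class there. Serpine2, a protease inhibitor, was at 1154 against 140.

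Several called genes encode enzymes or signalling proteins. Speer4e was at 122, 112, 88.7 and 74.8 in sets 1 to 4 and at 0.294 or less in the other classes, but it belongs to a family of near-identical copies, so its counts are uncertain. Sult5a1, a sulfotransferase, was at 136 and Aebp1, a collagen-binding secreted protein, at 202, while no other hormone class passed 1.31 and 2.06. The 1.31 for Sult5a1 rests on 3 UMIs in thyrotrophs. Gch1, which starts tetrahydrobiopterin synthesis, was at 105 against 7.20 in Pomc cells. Dgkk, a diacylglycerol kinase, was at 97.0 against 7.90 in Pomc cells, and Arhgdig, an inhibitor of small GTPases, at 121 against 4.82 in thyrotrophs. Sh3pxd2a, a podosome scaffold protein, reached 91.9 against 5.88 in lactotrophs. The unnamed transcripts 2810039B14Rik and 1500009L16Rik stood at 159 and 345.

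**Figure D3:**
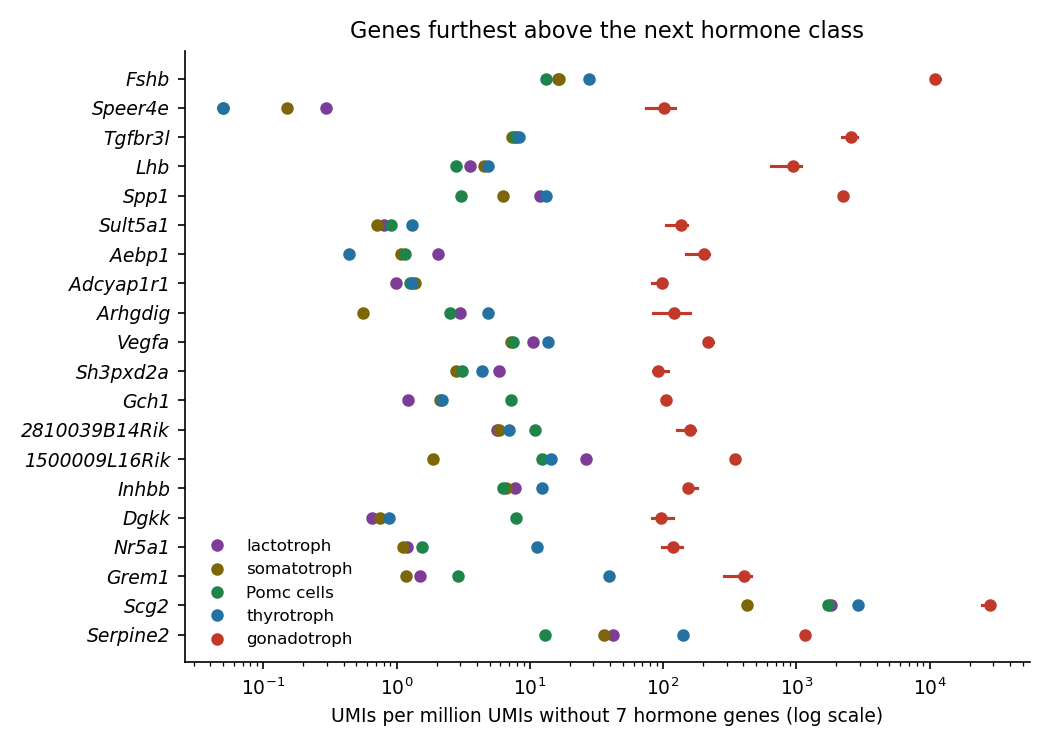
The 20 genes furthest above the next hormone class, as CPM without hormone genes on a log axis, with pooled levels as points and bars from the lowest to the highest barcode set of gonadotrophs. Values of 0 are drawn at the edge, and the gonadotroph bars lie to the right of all other classes, from Fshb (395 times the next class) to Serpine2 (8.23 times).

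Of 28 transcription factors known for the gonadotroph, 22 were compared, 2 were higher (9.09%), none was lower and 3 were highest in every set (13.6%). Among all genes compared, 1.01% were higher and 10.4% highest. Both higher factors passed the minimum level only through the gonadotroph. Of the 20 that passed by the other classes none was higher and 1 led (5%, where 9.1% of all genes did). The higher ones were Nr5a1, at 98.4, 118, 139 and 114 in sets 1 to 4 against 11.4 in thyrotrophs, and the forkhead factor Foxp2, at 284 against 45.1 in Pomc cells. Ctnnb1, encoding beta-catenin, also led at 293. Thyrotrophs had similar or higher levels of the factors the lineages share: Gata2 was at 272 against 342, Foxl2 at 191 against 198, and Isl1 at 122 against 173. Pitx1 stood at 765 against 608 without leading in every set. Of the factors below the mean limit, Nr0b1, the orphan receptor DAX1, was at 61.7 against 1.00 in Pomc cells and Lhx4 at 33.0 against 2.19 in thyrotrophs, values picked after they were seen. The list's median log2 ratio over the mean of the 4 other classes was 0.04, where that of all genes compared was -0.12. With the minimum asked of the other classes alone both were -0.14.

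None of the 9 compared factors of other lineages was higher, where 1.01% of all genes were. Pou1f1, which drives somatotrophs, lactotrophs and thyrotrophs, was at 29.8 against 649 in lactotrophs. Zbtb20 stood at 911 against 1840 in somatotrophs. The neural factor Neurod1 was at 119 against 170 in Pomc cells. The list's median was -0.90, and -3.40 without mixed cells, when 1 of the 9 was lower, as were 1.42% of all genes. Sox2 and Sox9 of this list are also markers that define mixed cells, so part of that fall follows from the definition.

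In the signalling path of the GnRH receptor, 3 of 30 compared genes were higher and 5 led (16.7%, where 10.4% of all genes did), with a median of 0.00. Of the 28 that passed by the other classes alone, 1 was higher, Rgs4, and 3 led (10.7%, against 9.1%). The higher genes were Rgs4, a regulator that shortens G-protein signals, at 447 against 129 in thyrotrophs, Prkcb, the beta form of protein kinase C, at 183 against 40.7, and Adcyap1r1, the receptor for PACAP, at 82.0, 95.7, 103 and 106 in sets 1 to 4 against 1.37 in somatotrophs. Itpr1, the calcium channel opened by inositol trisphosphate, led at 253. Gnaq, the alpha subunit of Gq, led at 187 against 183 in Pomc cells, a ratio of 1.02. The common components were not particular to the cell: Gnas was at 7981 against 9212 in Pomc cells, and the phospholipase Plcb1 at 22.0 against 181 in thyrotrophs.

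Within the activin, inhibin and BMP system 2 of 21 genes were higher (9.52%, where 1.01% of all genes were) and 4 led (19.0%, where 10.4% did). Of the 20 that passed by the other classes alone none was higher and 2 led (10%, where 9.1% of all genes did). Beside Tgfbr3l the higher gene was Inhbb, the beta B subunit that forms activin B and inhibin B, at 178, 146, 164 and 154 in sets 1 to 4 against 12.3 in thyrotrophs. Endothelial cells, which are outside these classes, had 132. The co-receptor Tgfbr3, called betaglycan, was at 166 against 138 in somatotrophs, and the receptor Acvr2b at 30.2 against 23.2 in thyrotrophs. Inha, the alpha subunit that inhibins need, was at 29.8 and below the 39.1 of Pomc cells. Id2, a target of BMP signals, was at 127 against 401 in Pomc cells, and the median over the list was -0.07.

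None of the 16 steroid, metabolic and peptide hormone receptors compared was higher, lower or leading. Of all genes 1.01% were higher, 0.426% lower and 10.4% leading. The oestrogen receptor Esr1 was at 234 against 264 in lactotrophs, Prlr at 194 against 256 and Igf1r at 160 against 319 in somatotrophs. The list's median was -1.12, below that of all genes.

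Of 20 granin and hormone-processing genes 3 were higher (15%) and 8 led (40%), where 1.01 and 10.4% of all genes did, with a median of 0.28. All 20 passed the minimum by the other classes alone. Scg2, whose product is cut to secretoneurin, was at 24723, 29079, 27563 and 28990 in sets 1 to 4 against 2892 in thyrotrophs, a ratio of 9.81. Chga was at 7974 against 2699 and the prohormone convertase Pcsk1 at 926 against 241, both against thyrotrophs. Chgb went the other way, at 3428 against 36113 in thyrotrophs. The protein disulfide isomerases Pdia3, Pdia4 and Pdia6, which help to fold secreted proteins, led at 1337, 172 and 537, as did Scg5 at 3189 and Pcsk1n at 3861. In the vesicle fusion list of 23 none was higher, Cplx2 was lower at 35.1, and Syt4 and Rab3b led at 621 and 317. Leading genes were 8.70% of that list, against 10.4% of all genes, and lower genes 4.35%, against 0.426%.

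Of 25 compared channels and pumps none was higher and 6 led (24%, where 10.4% of all genes did), with a median of 0.27. Of the 23 that passed by the other classes alone 5 led (21.7%, against 9.1%). Among the leading genes were the calcium pump Atp2a2 at 285 and the potassium channels Kcnk1 at 140, Kcnma1 at 139, Kcnd2 at 139 and Kcnb2 at 58.0. Kcnk1 was highest in set 1, at 222, where the markers of stem and endothelial cells were highest too, and their part in it was not tested.

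Nuclear genes of the respiratory chain mostly led. Of 30 genes, 25 were highest in gonadotrophs in every set (83.3%), where 10.4% of all genes were, and the median log2 ratio was 0.71. The lead was modest: Cox4i1 was at 1400 against 908 in Pomc cells, Cox8a at 1377 against 1215, Cox7c at 727 against 432 and Cox6c at 663 against 472. Ndufa1, a subunit of complex I, was the single gene past the 2-fold limit, at 470, 668, 447 and 567 in sets 1 to 4 against 212 in thyrotrophs. Without mixed cells 28 of 30 led, and with all UMIs as the library size 25 did. Gonadotrophs were also the deepest of the 5 classes, which the Gnrhr clause of the rule favours. What part depth had in these values was not tested.

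In glycolysis 6 of 17 genes led (35.3%, where 10.4% of all genes did), or 9 without mixed cells, with a median of 0.38, among them Gapdh at 1002 against 702 and Aldoa at 697 against 459 in Pomc cells, while Pkm was at 416 against 410. Among 18 genes of cholesterol and steroid metabolism 3 led (16.7%, where 10.4% of all genes did) and the median was -1.04. Of the 17 that passed by the other classes alone 2 led (11.8%, against 9.1%). The synthesis enzymes Hmgcs1 and Msmo1 stood at 116 and 91.6 against 402 and 344 in somatotrophs, while Soat1, which esterifies cholesterol, led at 155 against 80.6 in thyrotrophs, and Fdft1 and Scarb1, the receptor for HDL, led at 97.1 and 52.3. None of 27 immediate early genes led, where 10.4% of all genes did, with a median of -0.71, or -1.07 without mixed cells. Fos was at 3459 against 8313 in lactotrophs, Jun at 3873 and Egr1, a known mediator of GnRH action on Lhb, at 2819 against 5796 and 4494 in somatotrophs, and Jund at 2064.

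Of 23 chaperones and stress genes 5 led (21.7%, where 10.4% of all genes did), with a median of 0.07. They were Hsp90b1 at 1771, Hspa5 at 1538, Calr at 1382, Canx at 506 and Creld2 at 104, which act in the endoplasmic reticulum. Other members that act there did not lead, with Manf at 563 against 577, Dnajb9 at 196 against 321 and Herpud1 at 159 against 245, all in somatotrophs. The cytosolic chaperones Hsp90ab1 and Hsp90aa1, at 3737 and 2196, stood next to 3742 and 2525 in Pomc cells. Among 14 interferon and MHC class I genes only Bst2 led, at 45.6 (7.14%, where 10.4% of all genes did). No gene of this list led without mixed cells, or with the minimum asked of the other classes alone. Endothelial cells, which are outside these classes, had Bst2 at 346. B2m was at 238 against 839 in somatotrophs. Pcna, the 1 cell cycle gene compared, was at 55.5 against 90.7 in somatotrophs, and Mki67, a marker of dividing cells, was at 0.996.

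**Figure D4:**
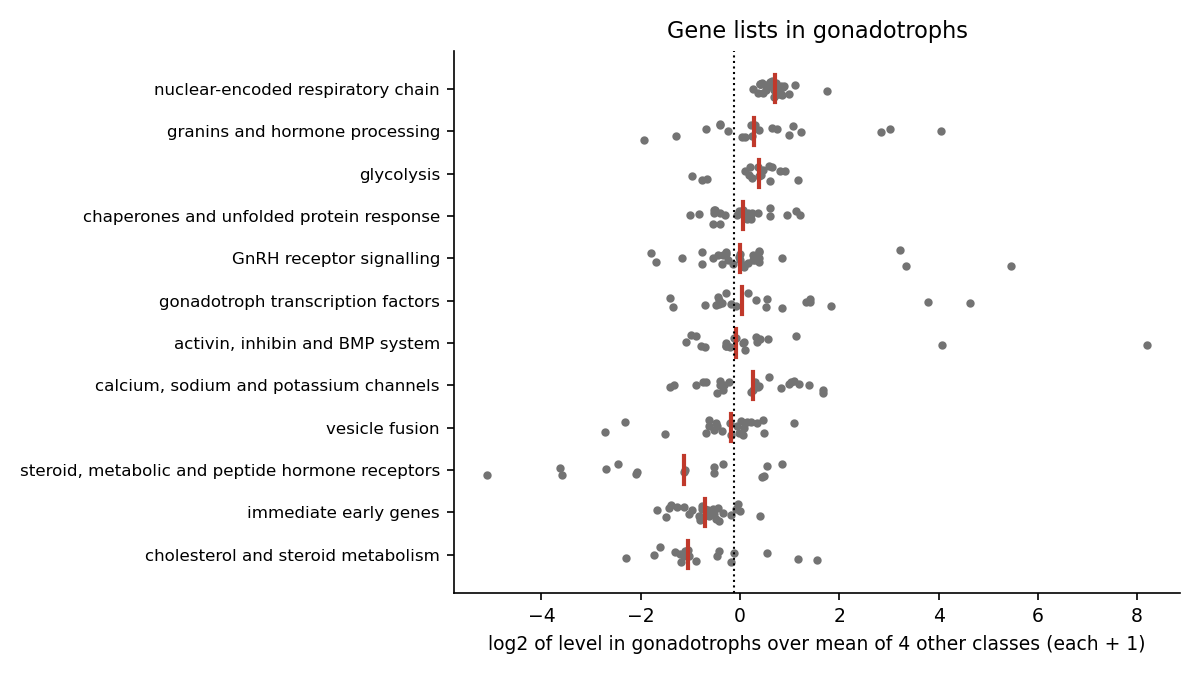
Log2 of the level in gonadotrophs over the mean of the 4 other hormone classes, each level plus 1, with a point per compared gene, a red bar for the list's median and a dotted line at the median of all 7986 genes (-0.12). The respiratory chain lies wholly to the right of the line with its median at 0.71, and the receptor, immediate early and cholesterol lists have medians of -1.12, -0.71 and -1.04.

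Of the 34 genes lower in gonadotrophs, the 10 furthest below the lowest other class were Ndst3, Dcc, Dbpht2, 5330416C01Rik, Cdkn2c, Gria2, Brinp1, Caly, Racgap1 and Chek2. Gria2, a subunit of AMPA glutamate receptors, was at 15.3, 12.2, 15.9 and 11.5 in sets 1 to 4, against 70.8 in somatotrophs and 340 in thyrotrophs. Ndst3, which modifies heparan sulfate, was at 1.33 and 11.4 times below the somatotroph. The netrin receptor Dcc was at 3.98, or 8.94 times below the somatotroph, and the cell cycle inhibitor Cdkn2c at 4.09, or 5.67 times below the lactotroph. Without mixed cells these levels were lower still, with Gria2 at 5.23, Dcc at 1.43, Cdkn2c at 1.58 and Ndst3 at 0. The count of lower genes moved from 34 to 113 when mixed cells were left out, and to 89 when barcodes of the other classes were also limited to 5 UMIs over the 30 markers.

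Against thyrotrophs alone, the class that shares Cga, 233 genes were higher (2.92%) and 295 lower (3.69%). The counts against Pomc cells were 289 (3.62%) and 296 (3.71%), against somatotrophs 388 (4.86%) and 396 (4.96%), and against lactotrophs 387 (4.85%) and 311 (3.89%). The profiles correlated at 0.785 to 0.826 over the 7986 genes, highest with Pomc cells. These pairs share the gonadotroph cells.

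Levels were also followed over 7 gated classes, T and endothelial cells included, in each of 4 sets. The 5 genes whose log2 levels went most closely with Gnrhr over the 28 points were Speer4e (r = 0.955), Tgfbr3l (0.951), Dgkk (0.940), Fshb (0.940) and Calr (0.899). The rule chose cells by Gnrhr, so these values describe the chosen cells.

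Of the 81 higher genes, 61 had a RefSeq window. CAAGGTCA occurred for 4 of these genes, Lhb, Aldh3b1, Mgat5 and Tmem191c, which is 6.56% of the 61 genes against 1.33% of all windows. TGAGTCA occurred for 3, Fshb, Anxa2 and Prss23, and its 4.92% lay near the 4.46% of all windows. TGACGTCA occurred for Scg2, Pcsk1 and Jak1 (4.92% against 1.55%) and TAATCC for 6 genes (9.84% against 6.25%). Each higher gene was counted once if any of its windows matched, while the share of all windows counts windows singly. The percentages thus differ in unit. These are counts of a few genes with no test. For Nr5a1 and Foxp2 there was no entry.

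The 4 sets had similar gonadotroph profiles, with r of 0.967 to 0.980 over 3979 genes with a mean level of at least 50. A gene was called for a set when it was at least 2 times, or at most 0.5 times, its level in each other set. Set 1 had 13 higher (0.327%) and 2 lower genes (0.0503%), set 2 had 0 higher and 1 lower (0.0251%), set 3 had 0 higher and 2 lower (0.0503%), and set 4 had 3 higher (0.0754%) and 2 lower (0.0503%). Without mixed cells 12 genes were called in place of 22, with 6 in common, 5 of them for the same set and direction.

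Of the 13 genes higher in set 1, only Msx1 kept that call without mixed cells. Ccn1, at 279.9 in set 1 against 73.6 to 130 in the others, was then called lower in set 2 instead. The 5 furthest above the other sets were Id3, at 188 against 27.7 to 38.1 in the other sets, Zfp36l1, at 348 against 81.7 to 116, Mgp, at 149 against 17.1 to 50.6, Cxcl10, at 117 against 36.0 to 44.7, and Cebpb, at 150 against 40.9 to 62.7. The endothelial marker Plvap and the stem cell marker Rbpms were also among the 13. Without mixed cells 1 gene was higher in set 1 (0.0252%), the homeobox gene Msx1, at 138 against 52.9 to 68.8, and 1 was lower (0.0252%), Phlda1, at 18.4 against at least 74.6 in the others. Set 2 then had 1 lower gene (0.0252%), the matricellular gene Ccn1, and set 3 had 2 (0.0504%), the neurofilament gene Nefl, at 33.0 against 70.3 to 91.8, and Rragd.

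Among the calls of set 4, haemoglobin Hbb-bs was at 203 there against 4.37 to 11.8, and the summed erythrocyte markers were at 313 against 5.47 to 21.3. The other 4 classes together did not share this, with Hbb-bs at 32.2 in set 4 and 28.5 to 88.9 in the other sets. Other calls of set 4 did run through all hormone cells. The ribosomal gene Rps10 was at 686 in set 4 and 280 to 285 in the others, and in the other 4 classes together it was at 792 against 343 to 355. Gm10076 was at 113 against 284 to 435 in gonadotrophs and at 121 against 317 to 474 in the other classes. Without mixed cells set 4 had 2 higher (0.0504%) and 5 lower genes (0.126%). The higher pair was Rps10 and mt-Atp6. Of the 5 lower genes, Dlk1, an imprinted Notch-like protein, was at 55.1 against 139 to 202 in the other sets, while the other classes held 2106 to 2285 in every set. The remaining 4 were Gm10076, Hmgn2, mt-Nd3 and Rpl35, each of which was also lowest in set 4 in the other classes.

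Gonadotrophs were next split within each set into terciles of Lhb as a share of UMIs, and the upper 206 cells were set against the lower 206. These are ranges and not cell types. A gene was called when it differed at least 1.5 times the same way in each of the 4 sets, with a mean level of at least 50. Of 3954 genes 15 were higher in the upper tercile (0.379%) and 85 lower (2.15%). The lower tercile held 79 mixed cells and the upper 27. Gh was 3.18% in the lower and 1.04% in the upper tercile, and stem and folliculostellate markers 498 and 32.7.

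Without mixed cells, in terciles of 153 cells, 5 of 3943 genes were higher (0.127%) and 20 lower (0.507%), of which 4 and 16 were also called with all cells. Spp1 went from 1663 in the lower to 2909 in the upper tercile, 1.75 times, with ratios of 1.60 to 2.19 in single sets. Tgfbr3l went from 2135 to 3371, or 1.58 times. The other 3 were Lpl, a lipase, Aldh3b1 and Gnb3, a G-protein subunit. Cells with more Lhb also had more Fshb, at 1.10% against 0.903%.

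Without mixed cells, of the 20 genes lower in cells with more Lhb, the 5 with the largest ratios were Cebpd, Dlk1, Bhlhe40, Socs3 and Cdkn1c. Cebpd, a transcription factor of acute responses, was at 130 in the lower and 21.5 in the upper tercile. Dlk1 went from 287 to 50.7, Bhlhe40, a clock-linked repressor, from 120 to 26.9, Socs3, a brake on cytokine signals, from 151 to 43.4, and the cell cycle inhibitor Cdkn1c from 213 to 61.6. Zfp36, which speeds mRNA decay, went from 611 to 213 and the metallothionein Mt1 from 1561 to 789. Of 18 compared immediate early genes 2 were lower, Atf3 and Zfp36, and the list's median log2 ratio was -0.42, against -0.84 with all cells and 0.00 for all genes. Other-cell values now lay closer, with Gh at 0.810 and 0.668% and stem and folliculostellate markers at 45.2 and 29.7. Gh and these markers define mixed cells, so closer values are partly built in. Median UMIs were 13875 and 16090. What part other-cell RNA and depth had was not tested.

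Terciles of Fshb gave a similar picture. With all cells 36 of 3969 genes were higher (0.907%) and 77 lower (1.94%), with 90 mixed cells in the lower and 24 in the upper tercile. In the upper tercile Scg2 was 1.94 times higher, at 36579 against 18897, and Gch1, Pcsk1 and Lhb were called as well. Without mixed cells 11 of 3934 were higher (0.28%) and 20 lower (0.508%), 7 and 16 of them shared, and Scg2, Pcsk1 and Lhb were no longer called. Gh was then 0.746 and 0.672%, and median UMIs were 14057 and 17106 in the lower and upper tercile.

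Without mixed cells, the 5 genes that gained most with Fshb were Pla2g7, Prss23, Timp1, Pdlim1 and Spp1. With all cells they were Grem1, Lpl, Spp1, Timp1 and Fdxr, at 2.76 to 2.40 times, and Pla2g7 and Prss23 were not called. The values that follow are without mixed cells. Pla2g7, a phospholipase that degrades platelet-activating factor, went from 33.8 to 87.7, and Timp1, an inhibitor of metalloproteases, from 37.9 to 82.7. Spp1 went from 1580 to 3220, the 1 gene called higher in both splits, where 8 were with all cells. Among the lower genes Cebpd went from 117 to 16.9, Socs3 from 141 to 32.0, Bhlhe40 from 126 to 31.1, Dgkk from 164 to 45.2 and Cdkn1c from 200 to 57.1. Nnat, an imprinted membrane protein, went from 2795 to 853. Dgkk and Cdkn1c were thus higher in gonadotrophs than in other classes and lower in the gonadotrophs with most Fshb.

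**Figure D5:**
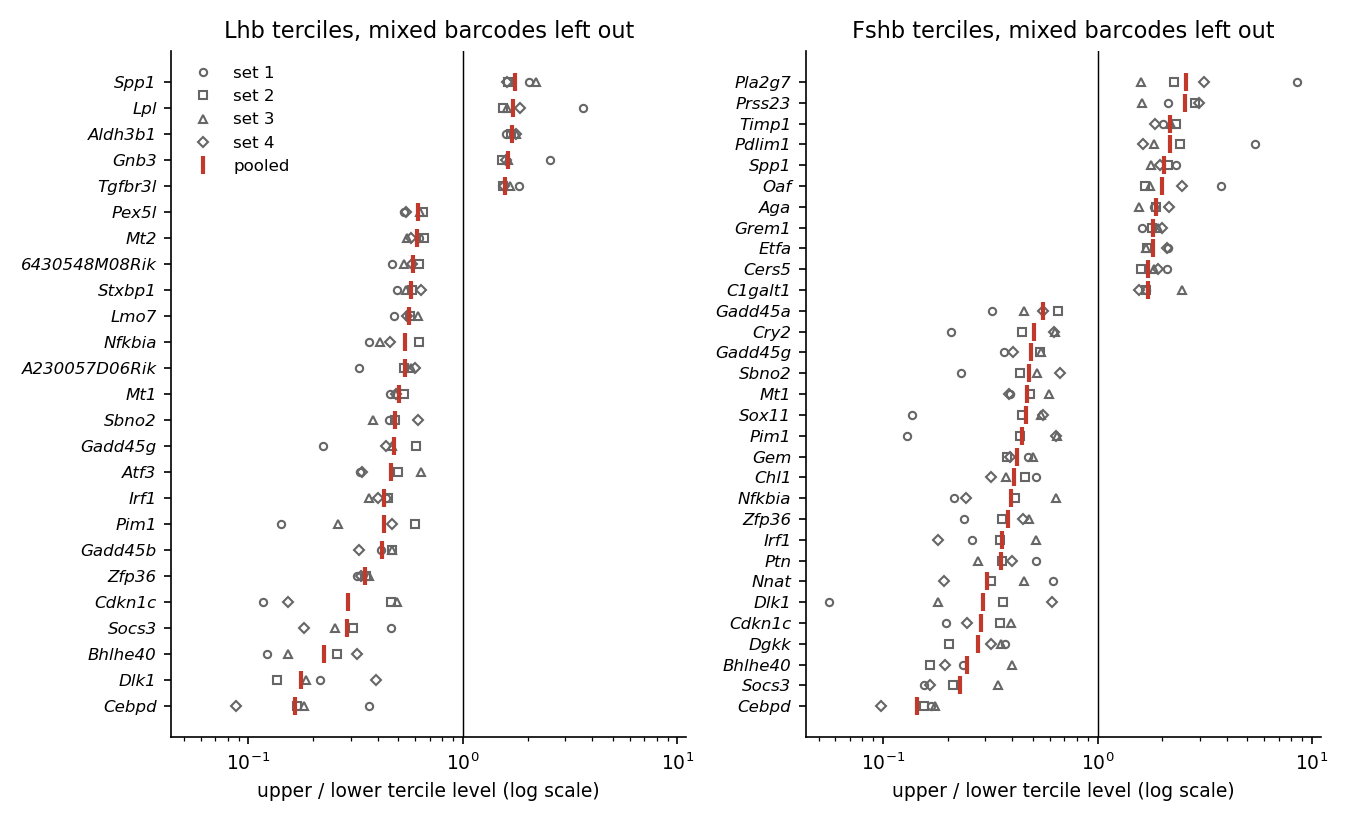
Ratio of the upper to the lower tercile on a log axis for every gene called without mixed cells, for terciles of Lhb (left) and of Fshb (right), with an open symbol per barcode set and a red bar for the pooled ratio. Spp1 stands among the higher genes on both sides, and Cebpd is the lowest on both, at 0.165 and 0.144 times.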

How the data were processed

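Raw UMI counts per gene and barcode were deposited by the authors as 1 joined table, written by Cell Ranger 8.0.1 per the file headers. Seurat is named in the submitters' processing notes without a version. The genome build, and whether libraries were brought to equal depth, is not given in the sources used here. Pituitaries were dissociated with enzymes and sequenced from 3′ cDNA on a NovaSeq, per the labels' protocols. Gonadotrophs and gene lists were chosen with earlier results of these data known.

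Barcodes with at least 1000 UMIs and at most 10% mitochondrial UMIs were kept. UMIs were summed per class and set and divided by the sum without the 7 hormone genes. With all UMIs as library size, the median log2 ratio of gonadotrophs over the mean of the other classes moved from -0.12 to 0.05, a shift of 0.17. Because no set could be tied to a sample, no count model was fitted and no p-value was computed. Intervals are exact Poisson for levels and Clopper-Pearson for shares, at 95%, and cover counting error only. The code was tested on simulated counts. Doublets were marked with Scrublet in scanpy 1.11.5. Its automatic threshold marked 2, 915, 736 and 0 barcodes in sets 1 to 4, so the top 8% of scores per set were taken instead, a choice made after seeing the data. Python 3.11.15, numpy 2.4.6, scipy 1.17.1, pandas 2.3.3 and matplotlib 3.10.9 were used.

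Genes named are the subunits and markers, the 20 highest and 10 lowest called genes by fold, the called and the up to 4 most abundant genes of each list, up to 5 called genes per set and tercile split, and the 5 most like Gnrhr. Any other gene named was chosen after its values were seen. Some genes that these rules name are not reported here.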

Additional observations from a re-analysis of the deposited data

How the results depend on the processing

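No paired analysis was possible because replicate numbers of HFD and ND cannot be matched to the barcode sets. The rule found 558 to 650 gonadotrophs under its other limits, 576 without cells that Scrublet marked and 462 without mixed cells, and leaving out single sets gave 328, without set 2, to 557. Levels limited the class comparison: with a mean level of at least 100, 16 genes were higher, 10 lower and 298 highest in each set, and with no minimum 424, 70 and 1613. With the minimum asked of the 4 other classes alone, 32 were higher. With all UMIs as library size 74 were higher and 24 lower. Leaving out a set asks for agreement in 3 sets in place of 4 and gave 85 to 94 higher, 37 to 48 lower and 911 to 1000 highest. Without mixed cells 113 were lower, and 89 with the other classes limited too. Respiratory chain genes that led numbered 22 to 28 of 30 in every setting tried. Depth set the share of cells with both beta subunits: 76.6% at 2000 UMIs, 97.4% unthinned and 68.7% at 3 UMIs each, with 93.1 to 94.6% over single sets left out and 90.4 to 94.96% over 20 other random draws. Genes called between sets numbered 22, but 2 with a mean level of at least 200, 13 without cells that Scrublet marked and 12 without mixed cells. For Lhb terciles, 15 higher and 85 lower genes became 7 and 45 with thinned terciles, 4 and 21 at a mean level of 200, and 5 and 20 without mixed cells; leaving out sets gave 20 to 33 and 91 to 103, with 28, 25 and 33 higher without sets 2, 3 and 4. For Fshb terciles, 36 and 77 became 20 higher with thinned terciles, 15 and 22 at a mean level of 200, 21 higher without Scrublet's cells, and 11 and 20 without mixed cells; leaving out sets gave 41 to 51 and 74 to 113. Without mixed cells, the Lhb split had 2 higher genes once Scrublet's cells were left out too, and leaving out sets gave 6 to 13 higher and 25 to 33 lower genes for Lhb and 16 to 22 and 22 to 41 for Fshb. The largest of these counts came without set 2 for both Lhb directions, without set 1 for Fshb higher and without set 3 for Fshb lower. Fewer sets asked to agree, fewer genes compared and fewer cells are part of how these settings are built, and other causes were not tested.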

Other observations

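Some genes below the mean level asked for in the class comparison were also concentrated in gonadotrophs, as values chosen after they were seen. The level of Nr0b1 was 61.2, 65.9, 60.3 and 53.2 in sets 1 to 4, and 45.3% of gonadotrophs had a UMI. Its next class was the Pomc cells at 1.00. Hesx1, a homeobox factor of early pituitary development, was at 13.5 in gonadotrophs or 67.4 times the next class, where 4 UMIs were counted, and 14.0% of gonadotrophs had a UMI. Foxl2 and Isl1 were at 191 and 122 in gonadotrophs and 198 and 173 in thyrotrophs, against at most 7.05 and 7.15 in the remaining hormone classes, so these levels set both Cga-expressing classes apart from the rest.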
